A study of Mus musculus with 6 samples.

Results

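The genes described here are 44 trans-synaptic adhesion molecules and postsynaptic density proteins, measured by RNA-seq in the prefrontal cortex of mice lacking *Pla2g4e* (KO) and of wild-type mice (WT). They were chosen by name, as proteins of these 2 kinds, with earlier results of these data known, and were matched by symbol to the 56923 genes in the tables. All 44 were found, and all 44 were among the 19084 genes that had enough fragments to be tested. *Pla2g4e* is the gene of an enzyme of the cytosolic phospholipase A2 family that needs calcium and makes N-acylated lipids. There were 3 KO and 3 WT libraries of polyadenylated RNA. Per the study's methods the KO is constitutive (strain C57BL/6N-A(tm1Brd) Pla2g4e(tm2a), with the source given as EUCOMM, Hmgu/BayMmucd). The allele holds a LacZ gene trap, and the methods give its full loss of function as a prediction. The study also reports Western blots of KO hippocampus without Pla2g4e protein, and immunostaining that was seen in WT sections alone. Neither the age, the sex nor the litter of the animals behind these libraries is given in the sources used here, and no label says that the libraries of a group come from separate animals, so the p-values measure the spread between these samples, part of which may be technical.

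At an excitatory synapse, presynaptic neurexins and receptor tyrosine phosphatases of the LAR group bind partners on the postsynaptic membrane, among them neuroligins, LRRTMs, SALMs, SLITRKs and IL1RAPL1, while netrin-G ligands bind netrin-G proteins. The intracellular ends of many of these partners are held by scaffolds of the DLG family, of which PSD-95 (*Dlg4*) is the best known, and DLGAP, SHANK and HOMER proteins link that layer to glutamate receptors and actin. Gephyrin does the corresponding work at inhibitory synapses, and CaMKII is the abundant kinase of the postsynaptic density.

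No member passed the adjusted threshold of 0.05 in limma-voom, and neither did any of the 19084 genes (0%), whose values are counts scaled to CPM (fragments per 1e+06, with trimmed-mean, or TMM, scaling). The smallest adjusted p among the members was 0.635. With Y-linked expression as a covariate, 23 genes passed, no member among them. At an unadjusted p under 0.05, 7 of 44 members (15.9%) were lower in KO, against 3.44% of all genes tested, and 1 member (2.27%) was higher, against 4.38%. The 7 lower genes are LRRTM, netrin-G ligand and SALM genes, and the 1 higher gene was *Homer2*, which did not keep an unadjusted p under 0.05 without KO 1. The 10 LRRTM, netrin-G ligand and SALM members varied together over the 6 libraries, so the lower calls are not independent. Their median pairwise Pearson r was 0.59, against 0.07 over all member pairs. The median standard error of the log2 fold change was 0.08 over the members and 0.14 over all genes tested, which makes the shares less alike. The median log2 fold change (KO over WT) was -0.05 over the members and 0.01 over all genes tested, and 32 of 44 members (72.7%) had a value below 0, against 48.1% of all genes. KO and WT values did not overlap in 6 members that were lower in KO (13.6%, against 6.29% of all genes) and in 2 that were higher (4.55%, against 6.72%).

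**Figure D1:**
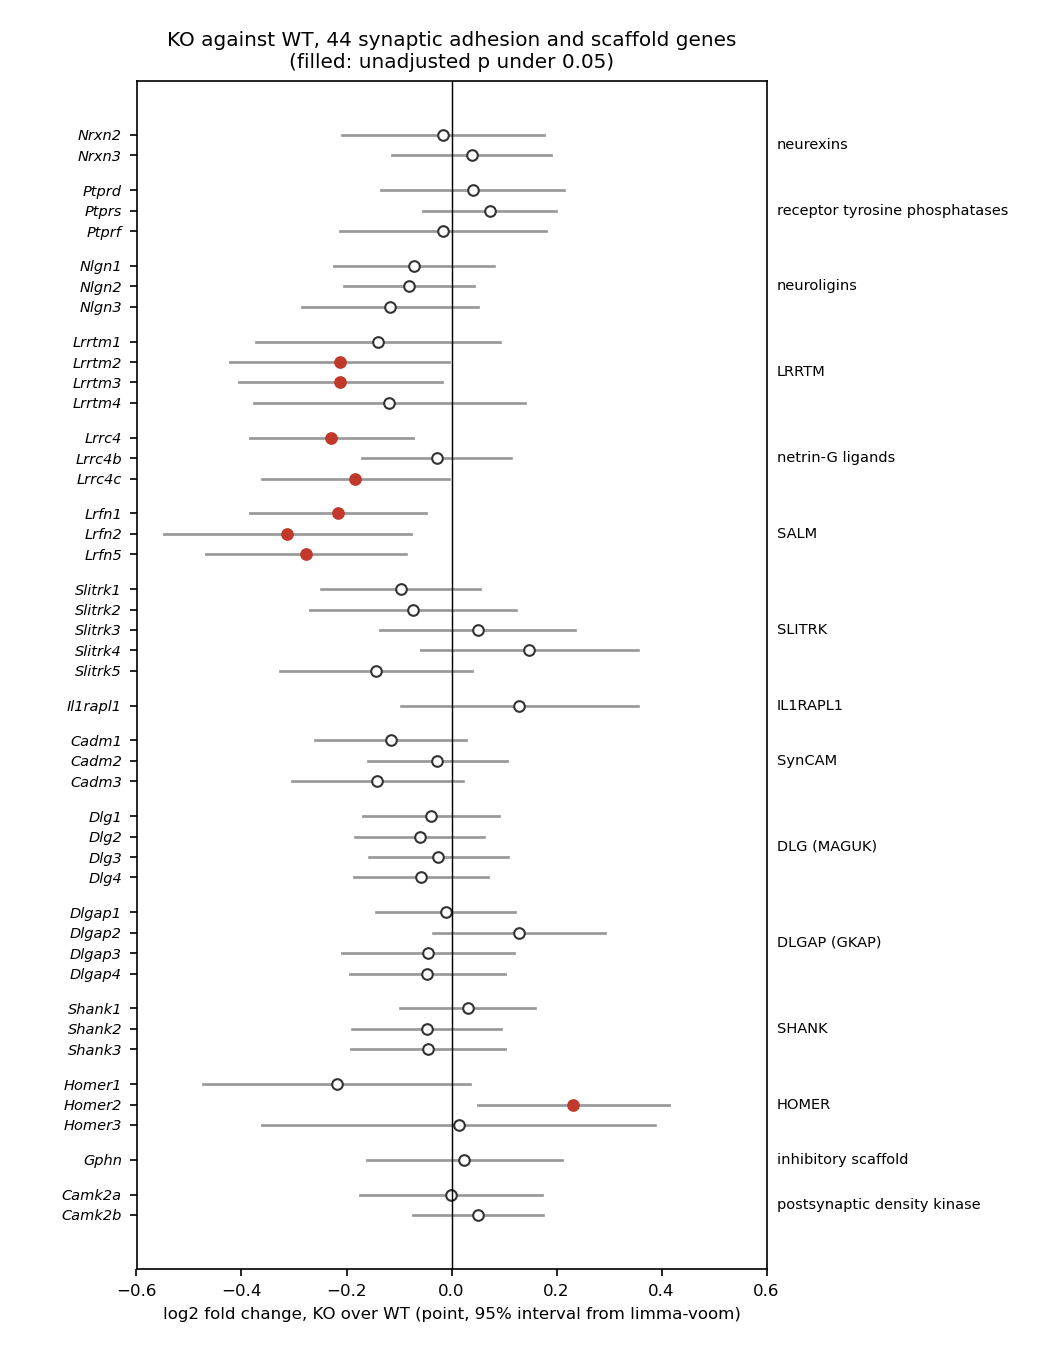
Log2 fold change (KO over WT) of each of the 44 genes, grouped by role, with the 95% interval from limma-voom; filled points have an unadjusted p under 0.05. The 10 LRRTM, netrin-G ligand and SALM genes lie between -0.31 and -0.03, all to the left of 0, and *Homer2* is the filled point to the right, at 0.23.

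Library totals ranged from 11792463 to 14594230 fragments, and the members held 1.40% to 1.49% of them. A single member had between 74 (*Homer3*) and 55547 (*Camk2a*) fragments in a library. The labels were checked against *Pla2g4e* itself, with KO values of 5.95, 8.12 and 7.97 CPM (KO 1 to 3) and WT values of 7.84, 11.3 and 13.2 CPM (WT 1 to 3). Its log2 fold change was -0.55 (SE 0.21, unadjusted p = 0.0205, adjusted p = 0.635, limma-voom), and the groups overlapped. Fragments were summed over all its exons, so any that are still transcribed in KO are counted, and this count checks the labels only weakly. Library KO 1 stood apart: its 6 olfactory bulb markers summed to 305 CPM, against 22.8 to 81.4 CPM in the other libraries. *Xist*, the RNA of the inactive X chromosome, reached 1387 CPM in KO 1, 969 CPM in WT 1 and at most 0.246 CPM elsewhere, so each group held 1 library without Y-linked expression and 2 with it, and the libraries of a group cannot all come from 1 animal. For the 8 members with an unadjusted p under 0.05, the value without a library is given below where leaving it out ended that call or moved the log2 fold change by over 1.5 times.

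The LRRTMs, netrin-G ligands (LRRC4 proteins, also called NGLs) and SALMs (LRFN proteins) are postsynaptic membrane proteins with leucine-rich repeats outside the cell. They are described together because the 7 lower genes fall in them, so the grouping followed the values. The SLITRKs, which are also leucine-rich repeat ligands, had 3 of 5 genes below 0 and none with an unadjusted p under 0.05, and with them the class had 13 of 15 below 0 and 7 of 15 with an unadjusted p under 0.05. All 10 members of the 3 families had a log2 fold change below 0, against 48.1% of all genes tested, with a median of -0.21. Of the 10, 7 had an unadjusted p under 0.05, against 3.44% of all genes that were lower at this p. In 5 the groups did not overlap, against 6.29% of all genes that were lower without overlap. Because the families were picked by these values, the counts and the sums below restate that choice and are no separate result. The summed level of the 10 genes was 620, 676 and 664 CPM in KO 1 to 3 (653 ± 29.8, SD, n = 3) and 743, 749 and 717 CPM in WT 1 to 3 (736 ± 16.6, SD, n = 3). The highest KO sum was below the lowest WT sum. Without KO 1, 10 of 10 still had a log2 fold change below 0, but only *Lrrc4* and *Lrfn5* kept an unadjusted p under 0.05. In bulk tissue, fewer cells of a type and less RNA per cell cannot be told apart.

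The SALMs organise postsynaptic receptors, and some bind presynaptic receptor phosphatases, and the 3 SALM genes among the members showed the lowest family median, -0.28. *Lrfn5* (SALM5, chromosome 12, 61569936-61905128, plus strand; all gene positions are GRCm39) was at 54.6, 66.4 and 65.0 CPM in the KO libraries and at 72.7, 80.0 and 71.7 CPM in the WT libraries. Every KO value was below every WT value, with KO 1 the lowest. Its log2 fold change was -0.28 (SE 0.09, 95% interval -0.47 to -0.09, limma-voom unadjusted p = 0.00781, adjusted p = 0.635), and -0.18 (unadjusted p = 0.0432) without KO 1. *Lrfn2* (SALM1, chromosome 17, 49239407-49404616, plus strand) had KO values of 18.5, 21.5 and 21.5 CPM and WT values of 27.0, 26.4 and 22.6 CPM. The groups did not overlap, although WT 3 lay close to KO 2 and KO 3. The fit gave a log2 fold change of -0.31 (SE 0.11, 95% interval -0.55 to -0.08, limma-voom unadjusted p = 0.0132, adjusted p = 0.635), the lowest of the 44. Without KO 1 it was -0.23 (unadjusted p = 0.0678), and in the 4 libraries with Y-linked expression -0.18 (unadjusted p = 0.16). *Lrfn1* (SALM2, chromosome 7, 28151405-28167667, plus strand) had KO values of 50.4, 57.1 and 55.2 CPM and WT values of 66.5, 60.6 and 61.4 CPM. These groups were also apart, again with KO 1 lowest. KO over WT, the log2 fold change was -0.22 (SE 0.08, 95% interval -0.38 to -0.05, limma-voom unadjusted p = 0.016, adjusted p = 0.635). It was -0.16 (unadjusted p = 0.0761) without KO 1, -0.17 (unadjusted p = 0.0602) without WT 1 and -0.12 (unadjusted p = 0.192) in the 4 libraries with Y-linked expression. The other SALM genes are no members but complete the family, and were looked up after the values of these 3 were known. *Lrfn3* had a log2 fold change of -0.13 (unadjusted p = 0.217) and *Lrfn4* one of 0.03 (unadjusted p = 0.717). With 1 library left out, *Lrfn3* ranged from -0.20 (without WT 3) to -0.07 (without WT 1).

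Netrin-G ligands bind netrin-G1, netrin-G2 or, for NGL-3, the phosphatase LAR. *Lrrc4* (NGL-2, chromosome 6, 28661830-28831746, minus strand) had KO values of 77.7, 80.5 and 86.8 CPM and WT values of 92.1, 100.5 and 94.3 CPM. Every KO library was below every WT library, and KO 3 came nearest to the WT values. This made a log2 fold change of -0.23 (SE 0.07, 95% interval -0.38 to -0.07, limma-voom unadjusted p = 0.0072, adjusted p = 0.635), the smallest p of the 44. *Lrrc4c* (NGL-1, chromosome 2, 96148514-97462011, plus strand) had KO values of 101.8, 119.8 and 114.3 CPM and WT values of 119.3, 122.7 and 138.8 CPM. KO 2 and WT 1 were nearly equal, so the groups overlapped. On the log2 scale the difference was -0.18 (SE 0.08, limma-voom unadjusted p = 0.0446, adjusted p = 0.635). The call was lost without KO 1 (-0.11, unadjusted p = 0.186), WT 3 (-0.12, unadjusted p = 0.179), KO 3 (-0.20, unadjusted p = 0.0628) or WT 2 (-0.21, unadjusted p = 0.0528), and in the 4 libraries with Y-linked expression (-0.16, unadjusted p = 0.0722). *Lrrc4b* (NGL-3) had the highest level per kilobase of exon of the family and a log2 fold change of -0.03 (95% interval -0.17 to 0.11). *Lrrc4* made up 21.7% ± 0.653 of the family's CPM per kilobase in KO and 23.5% ± 1.14 in WT (SD, n = 3 each), with no overlap (exact two-sided permutation test p = 0.1, the smallest that 3 against 3 libraries allow). Such shares were computed for the members of most families, and all others except that of *Dlgap2* overlapped. With that many shares some would separate even without a difference between groups, so this one is not read as a result.

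LRRTMs bind neurexins or heparan sulfate and help to keep AMPA receptors at the synapse. *Lrrtm3* (chromosome 10, 63764251-63926056, minus strand) had KO values of 36.2, 39.5 and 39.2 CPM and WT values of 49.1, 43.4 and 40.7 CPM. The groups did not overlap, by a narrow margin between KO 2 and WT 3. Its log2 fold change was -0.21 (SE 0.09, 95% interval -0.40 to -0.02, limma-voom unadjusted p = 0.0342, adjusted p = 0.635). The call was lost without WT 1 (-0.14, unadjusted p = 0.148), KO 1 (-0.17, unadjusted p = 0.114), KO 3 (-0.23, unadjusted p = 0.0526) or WT 2 (-0.23, unadjusted p = 0.0517), and in the 4 libraries with Y-linked expression it was -0.09 (unadjusted p = 0.356). *Lrrtm2* (chromosome 18, 35342056-35348077, minus strand) had KO values of 73.2, 88.0 and 77.9 CPM and WT values of 87.4, 105.5 and 84.5 CPM. KO 2 lay above WT 1 and WT 3, so the groups overlapped. The fit gave a log2 fold change of -0.21 (SE 0.10, limma-voom unadjusted p = 0.0452, adjusted p = 0.635). The call was lost without WT 2 (-0.12, unadjusted p = 0.232), KO 1 (-0.15, unadjusted p = 0.15) or KO 3 (-0.20, unadjusted p = 0.102), and in the 4 libraries with Y-linked expression (-0.19, unadjusted p = 0.0749). *Lrrtm1* and *Lrrtm4* had log2 fold changes of -0.14 and -0.12, with unadjusted p-values of 0.215 and 0.339.

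**Figure D2:**
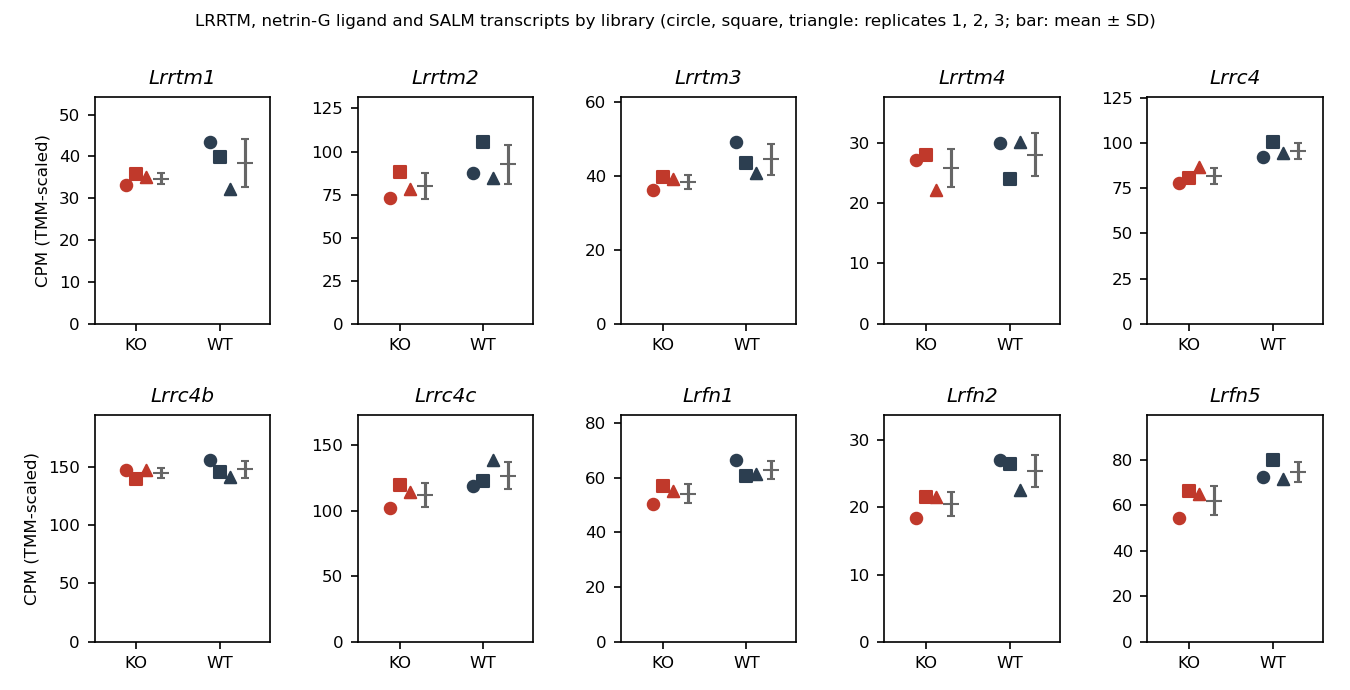
TMM-scaled CPM of the 10 LRRTM, netrin-G ligand and SALM genes in each KO and WT library, with the mean ± SD of 3 libraries beside the points. *Lrrc4*, *Lrfn5*, *Lrfn2*, *Lrfn1* and *Lrrtm3* show no overlap between KO and WT, and KO 1 (circle) is the lowest library in each of these 5.

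Of these 10 genes, 5 lie inside a larger gene on the opposite strand: *Lrrtm1* in *Ctnna2*, *Lrrtm2* in *Ctnna1*, *Lrrtm3* in *Ctnna3*, *Lrrc4* in *Snd1* and *Lrfn1* in *Samd4b*. The counts are strand-specific. The host genes *Snd1* and *Ctnna1* had log2 fold changes of -0.02 (unadjusted p = 0.732) and -0.02 (unadjusted p = 0.805), against -0.23 and -0.21 for the genes they contain. The host *Ctnna2* was at -0.11 (unadjusted p = 0.178), beside -0.14 for *Lrrtm1*, and *Samd4b* was at -0.14 (unadjusted p = 0.134), beside -0.22 for *Lrfn1*. *Ctnna3*, with 6 to 18 fragments in a library, was at 0.15 (unadjusted p = 0.758, 95% interval -0.86 to 1.15), beside -0.21 for *Lrrtm3*.

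Of the 5 ligand genes whose groups did not overlap, 3 have a single annotated start among the RefSeq promoter windows (GRCm38.p6), and the 250 bases before it are shown because these genes were lower in KO together. Each is written 5′ to 3′ on the gene's own strand, with CG dinucleotides in capitals. *Lrrc4* is at chr6:28831748-28831997 (minus strand), *Lrfn5* at chr12:61522917-61523166 (plus strand) and *Lrrtm3* at chr10:64090256-64090505 (minus strand).
Lrrc4: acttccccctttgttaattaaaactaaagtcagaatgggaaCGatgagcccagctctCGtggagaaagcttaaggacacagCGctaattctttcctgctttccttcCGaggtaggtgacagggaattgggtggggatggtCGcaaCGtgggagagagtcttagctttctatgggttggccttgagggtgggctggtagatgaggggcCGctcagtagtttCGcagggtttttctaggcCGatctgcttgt
Lrfn5: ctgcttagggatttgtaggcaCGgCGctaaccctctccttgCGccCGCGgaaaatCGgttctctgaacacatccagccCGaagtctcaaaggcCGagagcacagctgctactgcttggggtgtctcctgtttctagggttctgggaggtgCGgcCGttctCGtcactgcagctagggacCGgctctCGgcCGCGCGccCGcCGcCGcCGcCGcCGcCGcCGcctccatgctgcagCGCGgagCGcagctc
Lrrtm3: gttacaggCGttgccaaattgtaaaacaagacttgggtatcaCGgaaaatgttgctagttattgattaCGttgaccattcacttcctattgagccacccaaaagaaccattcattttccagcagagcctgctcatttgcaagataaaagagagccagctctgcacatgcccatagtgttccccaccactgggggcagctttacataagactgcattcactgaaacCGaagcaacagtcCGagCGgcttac
The 3 sequences differ widely in base composition. The *Lrfn5* stretch holds 27 CG dinucleotides with a G and C content of 66.4%, with a run of repeated CCG close to the start, while *Lrrc4* holds 9 at 51.2% and *Lrrtm3* holds 6 at 46.0%. Both strands were searched for 4 short motifs, which do not overlap one another in these stretches, and 1 CRE half-site in *Lrfn5* and 1 CCAAT box in *Lrrc4* were found. Over the full 300-base windows, 32 of 44 members had an entry. They had 49 windows, against 32851 for all 27025 genes, and a gene was counted if any of its windows held the motif. The median G and C content was 57.7% over the members' windows and 52.7% over all windows. The shares that follow are therefore not like for like. The GC box, with the letters GGGCGG, stood in 53.1% of those 32 members, against 38.2% of all 27025 genes with a window. The CRE half-site, searched as TGACG, stood in 28.1% of the members against 23.0% of all genes. The CCAAT box, searched by the 5 letters of its name, stood in 28.1% against 41.1%, and the TATA box, written in full as TATAAA, in 12.5% against 15.7%. The matches describe the letters in these windows and not sites in use.

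The mean log2 deviation of the 10 genes from their 6-library mean was -0.17, -0.03 and -0.08 in KO 1 to 3 and 0.14, 0.11 and 0.04 in WT 1 to 3. A list of 6 markers of excitatory cortical neurons was likewise lowest in KO 1 and highest in WT 1 and WT 2, with mean deviations of -0.35, -0.05 and 0.01 in KO and 0.23, 0.16 and 0.00 in WT, and a Pearson r with the ligand genes of 0.93, or 0.86 without KO 1. Each r rests on the same 6 libraries, which share their depth, scaling and tissue composition, and is a description only. All 6 of these markers had a log2 fold change below 0. In limma-voom *Neurod6* was at -0.42 (unadjusted p = 0.00348, adjusted p = 0.635) and *Nrn1* at -0.33 (unadjusted p = 0.0261, adjusted p = 0.635), or -0.30 (unadjusted p = 0.0135) and -0.29 (unadjusted p = 0.0548) without KO 1. *Nrn1* was at -0.14 (unadjusted p = 0.12) without WT 1 and -0.30 (unadjusted p = 0.078) without KO 2. Their summed level ranged from 1610 to 2032 CPM in KO and from 1960 to 2313 CPM in WT, and none was at 0 in any library. The summed level of the 10 ligand genes divided by the summed level of these markers gave 0.385, 0.335 and 0.327 for the KO libraries against 0.321, 0.336 and 0.366 for the WT libraries. These ratios overlapped, with means of 0.349 ± 0.0315 and 0.341 ± 0.0228 (SD, n = 3). In every library most of the marker sum came from 1 of the 6 genes, so such a ratio mainly follows that gene. The same ratio for the 14 excitatory scaffold genes was 2.83 ± 0.374 over the KO libraries, with KO 1 at 3.26, and 2.50 ± 0.156 over the WT libraries, again with overlap. The part of cell composition in the lower ligand levels was not tested.

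**Figure D3:**
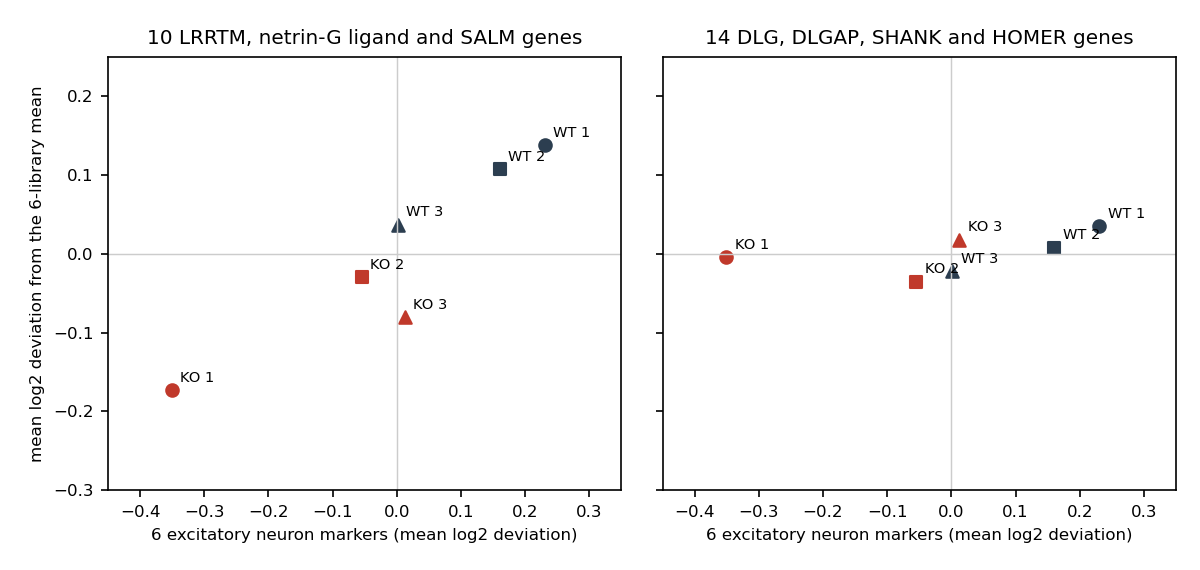
Mean log2 deviation from the 6-library mean for the 10 ligand genes (left) and the 14 excitatory scaffold genes (right), each against that of 6 markers of excitatory cortical neurons; each point is 1 library. The ligand genes run from -0.17 in KO 1 to 0.14 in WT 1 along with the markers, while the scaffolds stay between -0.04 and 0.04.

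For markers of other cell types, the r with the ligand genes over 6 libraries, and without KO 1, was 0.61 and 0.73 for 6 microglial markers, 0.35 and 0.12 for 6 endothelial and mural markers, 0.26 and 0.86 for 7 interneuron markers, and -0.09 and -0.47 for 8 immediate early genes. It was -0.21 and 0.25 for 7 astrocyte markers, -0.44 and -0.68 for 10 striatal neuron markers, -0.54 and -0.81 for 8 oligodendrocyte lineage markers, and -0.65 and -0.11 for 6 olfactory bulb markers. The r thus depended on KO 1 for several lists. The interneuron list was mixed in limma-voom. *Sst* (log2 fold change -0.50, unadjusted p = 0.000114), *Lhx6* (-0.33, unadjusted p = 0.0104) and *Pvalb* (-0.23, unadjusted p = 0.0357) did not overlap between groups (adjusted p = 0.635 each), *Vip* was at -0.15, and *Gad1*, *Gad2* and *Slc32a1* were at 0.33, 0.10 and 0.05 with no unadjusted p under 0.05. *Sst* and *Lhx6* kept an unadjusted p under 0.05 with any 1 library left out, and *Pvalb* lost it without KO 1 (-0.15, unadjusted p = 0.178), WT 1 (-0.19, unadjusted p = 0.106) or WT 2 (-0.24, unadjusted p = 0.0573). Interneuron markers summed to between 662 and 1039 CPM in KO and between 644 and 859 CPM in WT, with none at 0. Striatal markers summed to between 350.2 and 460 CPM in KO and between 262 and 435 CPM in WT, and olfactory bulb markers to between 46.8 and 305 CPM in KO and between 22.8 and 81.4 CPM in WT. Of the olfactory bulb markers, *Eomes* was at 0 in WT 2. Their part in the results was not tested.

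None of the remaining adhesion genes had an unadjusted p under 0.05. Neuroligins bind neurexins, with *Nlgn2* at inhibitory synapses and *Nlgn1* mainly at excitatory ones. *Nlgn2* (chromosome 11, 69713948-69728610, minus strand) had KO values of 324, 313 and 318 CPM and WT values of 342, 335 and 334 CPM. The groups did not overlap and were tight. The log2 fold change was nevertheless small, -0.08 (SE 0.06, 95% interval -0.20 to 0.04, limma-voom unadjusted p = 0.178, adjusted p = 0.701). *Nlgn1* and *Nlgn3* were at -0.07 (unadjusted p = 0.328) and -0.12 (unadjusted p = 0.153). The *Nlgn3* count is a lower bound, because 3823 of its exon bases are shared with an overlapping gene model on the same strand and fragments there were not counted.

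The SLITRKs, which bind the phosphatases PTPRD and PTPRS, were mixed. *Slitrk1*, *Slitrk2* and *Slitrk5* had log2 fold changes of -0.10, -0.07 and -0.14, *Slitrk3* and *Slitrk4* of 0.05 and 0.15, and no unadjusted p was under 0.113. *Il1rapl1*, an X-linked partner of PTPRD, had KO values of 28.3, 23.5 and 22.8 CPM and WT values of 22.8, 22.5 and 22.8 CPM. KO 1 alone was high, and the log2 fold change was 0.13 (95% interval -0.10 to 0.35). The homophilic adhesion genes *Cadm1*, *Cadm2* and *Cadm3* (SynCAM family) had log2 fold changes of -0.12, -0.03 and -0.14, with unadjusted p-values of 0.103, 0.668 and 0.0835.

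On the presynaptic side, the neurexin genes *Nrxn2* and *Nrxn3* had log2 fold changes of -0.02 and 0.04. *Ptprs* (PTPsigma, chromosome 17, 56719426-56783483, minus strand) had KO values of 551.5, 549.7 and 582 CPM and WT values of 547, 537 and 517 CPM. Every KO value was above every WT value, by a small step between KO 2 and WT 1. KO over WT, the log2 fold change was 0.07 (SE 0.06, 95% interval -0.05 to 0.20, limma-voom unadjusted p = 0.233, adjusted p = 0.740), and from 0.046 (without KO 3) to 0.091 (without WT 1) with 1 library left out. *Ptprd* and *Ptprf* were at 0.04 and -0.02. No presynaptic member had an unadjusted p under 0.05, and the 5 intervals together spanned -0.21 to 0.22 on the log2 scale.

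The 14 excitatory scaffold genes had a median log2 fold change of -0.04, with 10 below 0 and 1 with an unadjusted p under 0.05. *Dlg4* (PSD-95, chromosome 11, 69907768-69938348, plus strand) had KO values of 863, 827 and 886 CPM and WT values of 928, 893 and 861 CPM. The groups overlapped, with WT 3 among the KO values. This made a log2 fold change of -0.06 (SE 0.06, 95% interval -0.19 to 0.07, limma-voom unadjusted p = 0.344, adjusted p = 0.794), and from -0.088 (without WT 3) to -0.031 (without WT 1) with 1 library left out. *Dlg1*, *Dlg2* and *Dlg3* were at -0.04, -0.06 and -0.02, and the 4 intervals of the family lay between -0.19 and 0.11. *Dlg4* made up 45.3% ± 0.981 of the family's CPM per kilobase in KO and 45.6% ± 0.687 in WT (SD, n = 3 each; exact two-sided permutation test p = 0.8).

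The DLGAP proteins join the DLG scaffolds to SHANK. *Dlgap1*, *Dlgap3* and *Dlgap4* had log2 fold changes of -0.01, -0.04 and -0.05, and *Dlgap2* one of 0.13 (unadjusted p = 0.112). *Dlgap2* was the lowest of its family per kilobase. It took 8.16% ± 0.132 of the family in KO and 7.36% ± 0.666 in WT (SD, n = 3 each), without overlap (exact two-sided permutation test p = 0.1, the smallest possible). Among the shares computed for all the families, only those of *Dlgap2* and *Lrrc4* did not overlap. Any complete separation of 3 against 3 libraries gives p = 0.1 in this permutation test. Some of many shares would separate even without a difference between groups, so neither is read as a result. *Shank1*, *Shank2* and *Shank3* were at 0.03, -0.05 and -0.05, with all unadjusted p-values of at least 0.487.

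HOMER proteins tie group I metabotropic glutamate receptors to SHANK. *Homer2* (chromosome 7, 81250229-81357275, minus strand) had KO values of 133, 112 and 115 CPM and WT values of 101.5, 95.1 and 110.3 CPM. All KO values were above all WT values, with KO 1 the highest. On the log2 scale the difference was 0.23 (SE 0.08, 95% interval 0.05 to 0.41, limma-voom unadjusted p = 0.0164, adjusted p = 0.635). Without KO 1 it was 0.15 (unadjusted p = 0.0791), without WT 2 0.18 (unadjusted p = 0.0753) and in the 4 libraries with Y-linked expression 0.15 (unadjusted p = 0.101). Its deviations ran against the excitatory markers (r = -0.94 over 6 libraries) and with the olfactory bulb markers (r = 0.83), which were highest in KO 1. Without KO 1 these r were -0.82 and 0.48. With the oligodendrocyte lineage and striatal markers r was 0.50 and 0.44 over 6 libraries, and 0.86 and 0.78 without KO 1. The part of these cell types in the *Homer2* level was not tested. *Homer1*, which lies outside the rule for full statistics and was singled out after its values were seen, had KO values of 261, 268 and 274 CPM and WT values of 379, 322 and 248 CPM. The KO libraries lay within a coefficient of variation of 2.41%, while the WT libraries spread over 20.7%. Its log2 fold change was -0.22 (95% interval -0.47 to 0.04, limma-voom unadjusted p = 0.0855, adjusted p = 0.648). It was -0.08 (unadjusted p = 0.444) without WT 1 and -0.39 (unadjusted p = 0.000555) without WT 3. Over 6 libraries, r of *Homer1* was -0.91 with oligodendrocyte lineage markers, -0.83 with striatal, 0.78 with microglial and 0.73 with excitatory markers. The part of these cell types in the *Homer1* level was not tested. *Homer1* also makes a short activity-induced isoform, which gene counts do not separate. *Homer3* was at 0.01. As a share of the family's CPM per kilobase, *Homer1* took 65.9% ± 2.79 in KO and 71.7% ± 5.75 in WT and *Homer2* 28.0% ± 2.04 and 22.5% ± 4.35 (SD, n = 3 each), and both overlapped (exact two-sided permutation test p = 0.3 each).

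**Figure D4:**
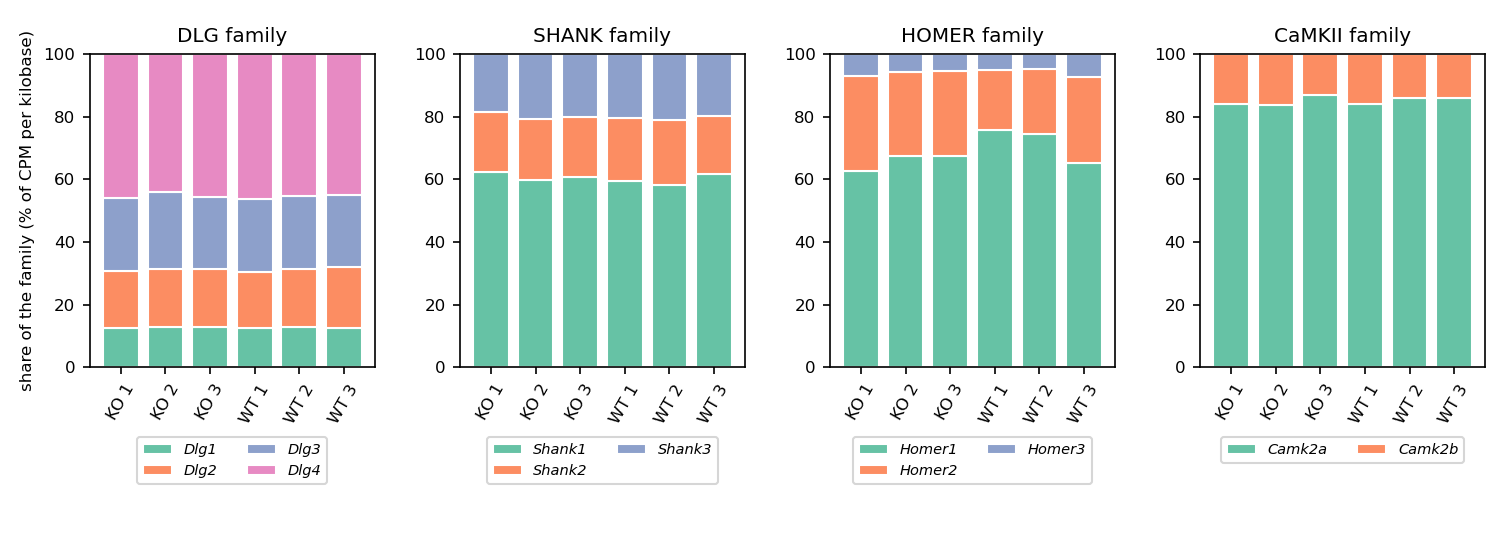
Share of each gene in its family's summed CPM per kilobase of exon, in percent, for DLG, SHANK, HOMER and CaMKII in each library. The DLG family keeps *Dlg4* between 44.1% and 46.3% in every library, whereas *Homer1* ranges from 62.7% in KO 1 to 75.8% in WT 1.

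*Camk2a* (chromosome 18, 61058690-61121224, plus strand) had KO values of 3734, 3582 and 4338 CPM and WT values of 3545, 4056 and 4041 CPM. The groups overlapped throughout, with the highest value in KO 3 and the lowest in WT 1. The fit gave a log2 fold change of 0.00 (SE 0.08, 95% interval -0.17 to 0.17, limma-voom unadjusted p = 0.993, adjusted p = 0.997), and its sign changed with the scaling and with the tool. *Camk2b* was at 0.05 (95% interval -0.07 to 0.17). *Gphn*, the gephyrin gene, was at 0.02 (95% interval -0.16 to 0.21).

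Levels of different genes were compared only as CPM per kilobase of exon, in WT. *Camk2a* was the highest at 520, followed by *Dlgap3* at 98.8, *Shank1* at 97.7, *Camk2b* at 89.1 and *Cadm3* at 74.7. *Dlgap3* and *Shank1* did not differ beyond their spread. The lowest were *Homer3* at 2.06, *Il1rapl1* at 2.43, *Slitrk2* at 4.40, *Lrrtm4* at 4.56 and *Nlgn1* at 6.24.

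**Figure D5:**
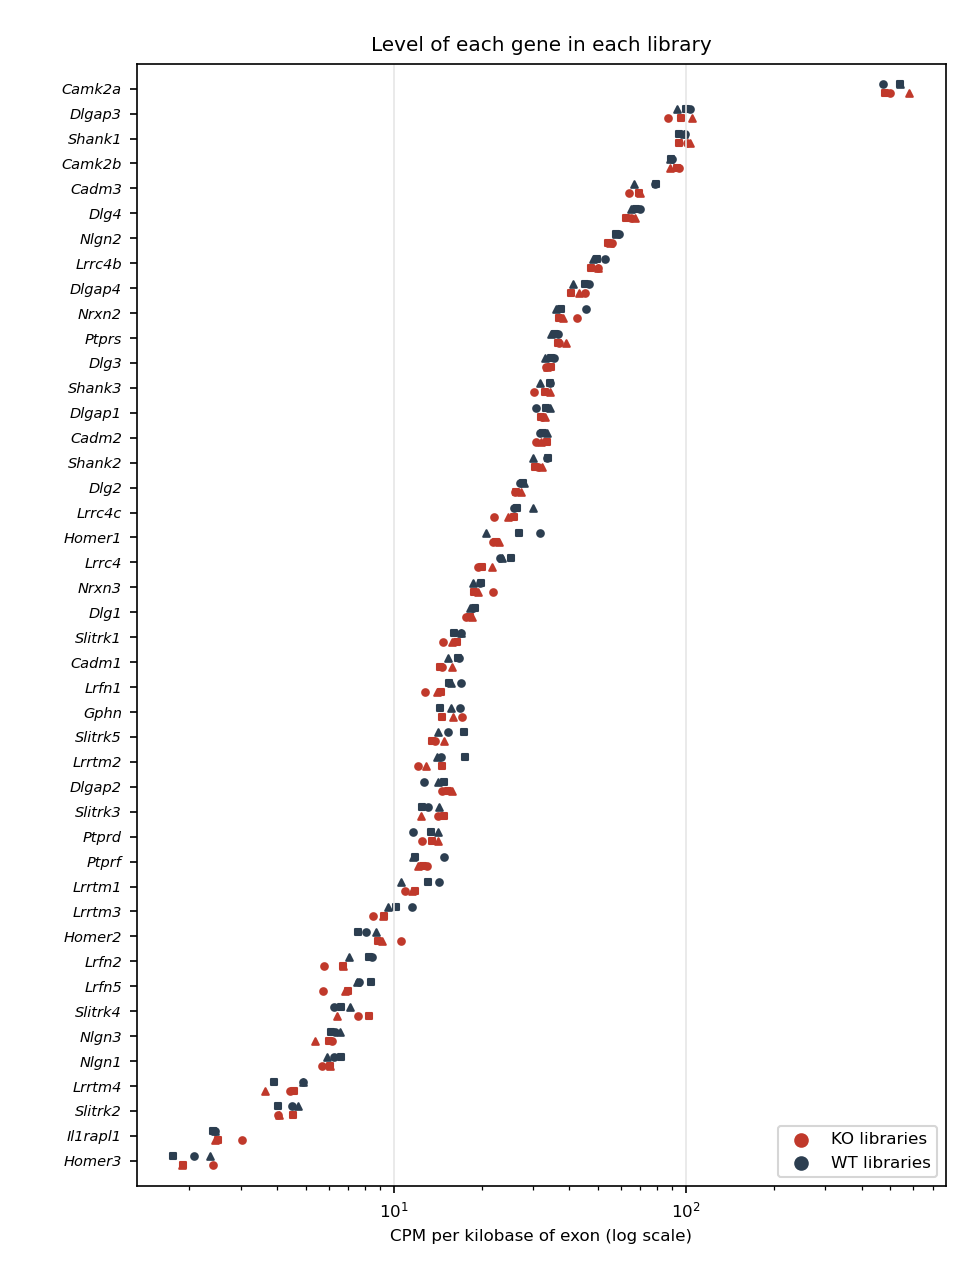
Level of each of the 44 genes in each library as CPM per kilobase of exon on a log scale, ordered by the WT mean. *Camk2a* stands alone at about 520, and *Homer3* and *Il1rapl1* are lowest, at 2.06 and 2.43 in WT.

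The members are long genes: their median span was 101 kb against 19.0 kb for all genes tested, and 22 of 44 (50.0%) spanned more than 100 kb, against 12.8% of all genes. Of the longer members 16 of 22, and of the shorter members 16 of 22, had a log2 fold change below 0, with medians of -0.05 and -0.04. Over all genes tested, 1117 of 2445 longer and 8068 of 16639 shorter genes were below 0, with medians of 0.02 and 0.01. The part of gene length in the lower levels was not tested.

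A list of 43 other synaptic adhesion and scaffold genes was read beside the members. Of these, 2 (4.65%) had an unadjusted p under 0.05 and were lower in KO, against 3.44% of all genes tested. Another 4 (9.30%) were higher, against 4.38%, and the median log2 fold change was -0.04. *Clstn1* (calsyntenin-1) was at -0.21 (unadjusted p = 0.0239) and *Flrt3*, a latrophilin ligand, at -0.25 (unadjusted p = 0.0458). *Tenm3* (teneurin-3) was at 0.52 (unadjusted p = 0.0103), *Mdga1*, an inhibitor of neuroligin binding, at 0.69 (unadjusted p = 0.0311), *Cbln1*, a secreted linker to neurexins, at 0.63 (unadjusted p = 0.0328) and *Tanc1*, a scaffold, at 0.20 (unadjusted p = 0.0483). The adjusted p in limma-voom was 0.635 for the first 5 of these and 0.636 for *Tanc1*. *Mdga1* reached 54.3 CPM in KO 1 and 22.7 to 30.4 CPM in the other KO libraries, against 16.5 to 29.1 CPM in WT, and *Cbln1* 9.53 CPM in KO 1 and 4.61 to 5.70 CPM in the other KO libraries, against 3.93 to 4.55 CPM in WT. Both were highest in KO 1, the library with the highest olfactory bulb markers, and without it *Mdga1* was at 0.31 (unadjusted p = 0.123) and *Cbln1* at 0.31 (unadjusted p = 0.186). Without KO 1, *Flrt3* was at -0.12 (unadjusted p = 0.278) and *Clstn1* at -0.14 (unadjusted p = 0.0968). *Tenm3* kept an unadjusted p under 0.05 except without WT 2 (0.32, unadjusted p = 0.0566), and *Tanc1* kept it only without KO 1 (0.25, unadjusted p = 0.0278). *Mdga1*, *Cbln1* and *Flrt3* also lost it without WT 2 or WT 3, *Flrt3* without KO 2 as well, and *Clstn1* without WT 2 (-0.14, unadjusted p = 0.122). These leave-outs were added after the values were seen.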

How the data were processed

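RNA from 6 mouse prefrontal cortex samples was extracted with the Maxwell RSC simplyRNA kit and made into TruSeq Stranded mRNA libraries. The authors deposited raw counts of fragments per gene, 1 table per sample, not normalized or pooled. Per the file headers, featureCounts 1.6.0 counted reverse-stranded fragments over exons of GENCODE vM31 (GRCm39). The submitters' processing notes also name FastQC 0.11.8, STAR 2.7.9a and GRCm39, whereas the paper's methods name an earlier assembly and annotation. Fragments overlapping several genes were not counted.

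Groups and replicate numbers came from the sample titles. Symbols were matched through Ensembl identifiers (52073 of 56923 genes). Genes with at least 6 fragments in at least 1 library were tested (19084). KO was compared with WT by limma-voom (limma 3.58.1, edgeR 4.0.16 TMM factors, R 4.3.3), two-sided and without covariates, and p-values were adjusted by Benjamini-Hochberg across every tested gene. The study's methods also name edgeR normalization, voom, limma and a filter at 6 reads, but not the scaling factors, covariates or method of adjustment. CPM is the TMM-scaled count per 1e+06, and level per length divides it by the exon length in the tables. Library deviations are means of log2(CPM + 0.5) minus the 6-library mean. The scripts were tested on simulated data. No 2 libraries agreed within sampling noise. Fragments carry no molecular identifiers, so depth covers counting error only.

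The members, the marker lists and the list of other synaptic genes were chosen with earlier results of these data known. Full statistics are given for *Dlg4*, *Camk2a*, members with an unadjusted p under 0.05 and members without overlap, and per-length levels for the 5 highest and 5 lowest. Other synaptic genes are named at an unadjusted p under 0.05, at most 8. Alternatives were edgeR's quasi-likelihood test, DESeq2 1.42.0, other scalings, filters and weights, a replicate block, a Y-linked covariate and leaving out libraries. Marker lists for astrocytes, microglia, vessels and immediate early genes were read as well. The values of 1 excitatory neuron marker are not reported here on their own.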

Additional observations from a re-analysis of the deposited data

How the results depend on the processing

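None of the 16 alternatives gave a member an adjusted p under 0.05. With no gene past the adjusted threshold in limma-voom, 1492 of 19084 genes had an unadjusted p under 0.05; the quasi-likelihood test of edgeR called 0 genes and 1507 unadjusted, and DESeq2 1 and 902. These counts were 23 and 2031 with the Y-linked covariate, 3 and 696 in the 4 libraries with Y-linked expression, and 1 and 782 without WT 2. *Lrrc4* and *Lrfn5* had an unadjusted p under 0.05 under all 16, with adjusted p-values from 0.305 to 0.999 and from 0.269 to 0.999, and *Homer2* under 13. The members with an unadjusted p under 0.05 numbered 8, but 5 with library totals alone and 2 in the 4 libraries with Y-linked expression. With 1 library left out they ranged from 2 (without KO 1) to 12 (without WT 3), with 4 without WT 2. The number over all genes also moved, to 830 of 18701 without KO 1 and 2239 of 18931 without WT 3. It was 782 of 18936 without WT 2 and 696 of 18476 in the 4 libraries. With library totals it stayed close to the main count, at 1489 of 19084. The member counts with fewer libraries are therefore not read as a result about the members. *Lrrtm2*, *Lrrtm3* and *Lrrc4c* were no longer under 0.05 with library totals, nor *Lrrtm3* in DESeq2, nor *Lrrc4c* with quality weights. Members without overlap numbered 8, but 14 in those 4 libraries, and 10 to 20 with 1 library left out, where groups of 2 separate more easily. The share of all genes without overlap was counted only in the main comparison (6.29% lower and 6.72% higher in KO). The counts under alternatives therefore have no background beside them and are not read as a result about the members. The members' median was -0.046 and ranged from -0.085 (without WT 3) to -0.043 with 1 library left out, and it was -0.020 with library totals alone and -0.030 in those 4 libraries. The other synaptic genes with an unadjusted p under 0.05 numbered 6, but 2 in DESeq2 and 3 in the 4 libraries, and 0 (without WT 2) to 6 with 1 library left out. The *Camk2a* log2 fold change of -0.00076 turned to 0.0014 in edgeR, 0.025 with library totals, 0.0039 with a filter of 1 fragment and 0.011 with quality weights, and ranged from -0.083 to 0.050 with 1 library left out. The cause of these shifts was not tested. With the replicate block, 9 members had an unadjusted p under 0.05. Same-numbered libraries correlated at 0.32, 0.08 and -0.03, which does not show that equal numbers mark paired samples. With the SLITRK genes counted in, a grouping added after the values were seen, 12 to 14 of 15 ligand genes were below 0. Of the 10 ligand genes, 10 were below 0 in every alternative except without WT 1 (9). Over all genes the share below 0 ran from 42.5% with library totals to 50.1% with another filter. The 10 were grouped by their values in these same libraries, so their kept direction is no separate check. With library totals 27 of 44 members were below 0, against 42.5% of all genes, whose median moved to 0.03. With 3 libraries a group, no member with a log2 fold change between -0.18 and 0.23 had an unadjusted p under 0.05.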
